A study of Mus musculus with 6 samples.

Results

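The aquaporin genes were followed in adult mouse kidney after an induced deletion of Pax2 and Pax8. The 10 genes Aqp1 to Aqp9 and Aqp11 were taken by symbol, each through the only array cluster that carried that symbol, out of 22180 genes with a cluster of a single symbol. Aquaporins are membrane channels that let water cross epithelia along an osmotic gradient, and the aquaglyceroporins among them (Aqp3, Aqp7 and Aqp9) also pass glycerol. In the kidney each segment has its own set. Aqp1 serves the proximal tubule and the thin descending limb, Aqp7 the straight proximal tubule, and Aqp2, Aqp3 and Aqp4 the principal cells of the collecting duct, where vasopressin sets water permeability. Aqp6 lies in the vesicles of alpha intercalated cells.

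RNA came from a part of the kidney of 6 samples, 1 Mouse Gene 2.1 ST array each, in 2 groups. The 3 arrays labelled dKO (replicates 1, 3 and 5) came from mice homozygous for conditional (floxed) Pax2 and Pax8 with Rosa26CreER, a tamoxifen-activated Cre driven from a locus that is active in most cell types, so that the deletion is not limited to the tubule by its driver. The 3 controls (replicates 2, 4 and 6) lacked Cre and also received tamoxifen; the labels do not say whether they carried the conditional alleles. Tamoxifen was injected at 50 mg/kg on 3 days at 8 weeks of age and on 3 more at 10 weeks, and RNA was purified from kidney tissue of mice killed 14 days later. Each group held 2 females and 1 male, the males being dKO 1 and control 4. The labels do not say that each array is a separate animal, and p-values therefore describe the spread of these samples alone, which may be technical.

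Pax8 read 10.11, 10.59 and 10.39 log2 on the arrays labelled dKO, against 8.89 to 9.09 log2 on the 3 controls, and Pax2 read 6.11, 6.49 and 6.16 log2 on the arrays labelled dKO, against 6.09, 5.77 and 6.08 log2 on the controls. Pax8 was higher by 1.36 ± 0.12 log2 (SE; limma adjusted p = 0.0037), and the difference of Pax2, 0.27 ± 0.10, did not pass (adjusted p = 0.19). Neither targeted gene was lower on the arrays labelled dKO, and a cluster outside the deleted exons would check nothing, so every direction below is that of the labels. Markers of kidney tubule were present: all 10 thick ascending limb genes lay above 3.67 log2, the level under which 95% of 1394 olfactory and vomeronasal receptor genes lay and which is called the dim limit here.

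Of the 10 aquaporin genes, 5 passed the test (7.2% of all genes), of which 5 fell on the arrays labelled dKO and 0 rose (limma, adjusted p under 0.05 over all 22180 genes). Among all genes 3.08% fell and 4.12% rose by the same rule, and after centring each array on its median the split of calls over all genes was 713 higher and 1194 lower, against 913 higher and 683 lower as deposited. A fall of at least 2-fold was called for 3 aquaporins (0.609% of all genes). The 5 were the principal cell channels Aqp2, Aqp3 and Aqp4, the intercalated cell channel Aqp6 and the proximal tubule protein Aqp11. The median log2 difference over the 10 genes was -0.50, against -0.01 over all genes. The groups did not overlap for 7 of the 10 genes (22.5% of all genes), namely for 6 that were lower (10.8% of all genes) and for 1 that was higher (11.7% of all genes). In bulk tissue, fewer cells of a type and less RNA per cell cannot be told apart. Of the 10, 8 had a mean at or above the dim limit, and Aqp8 and Aqp9 lay below it.

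**Figure D1:**
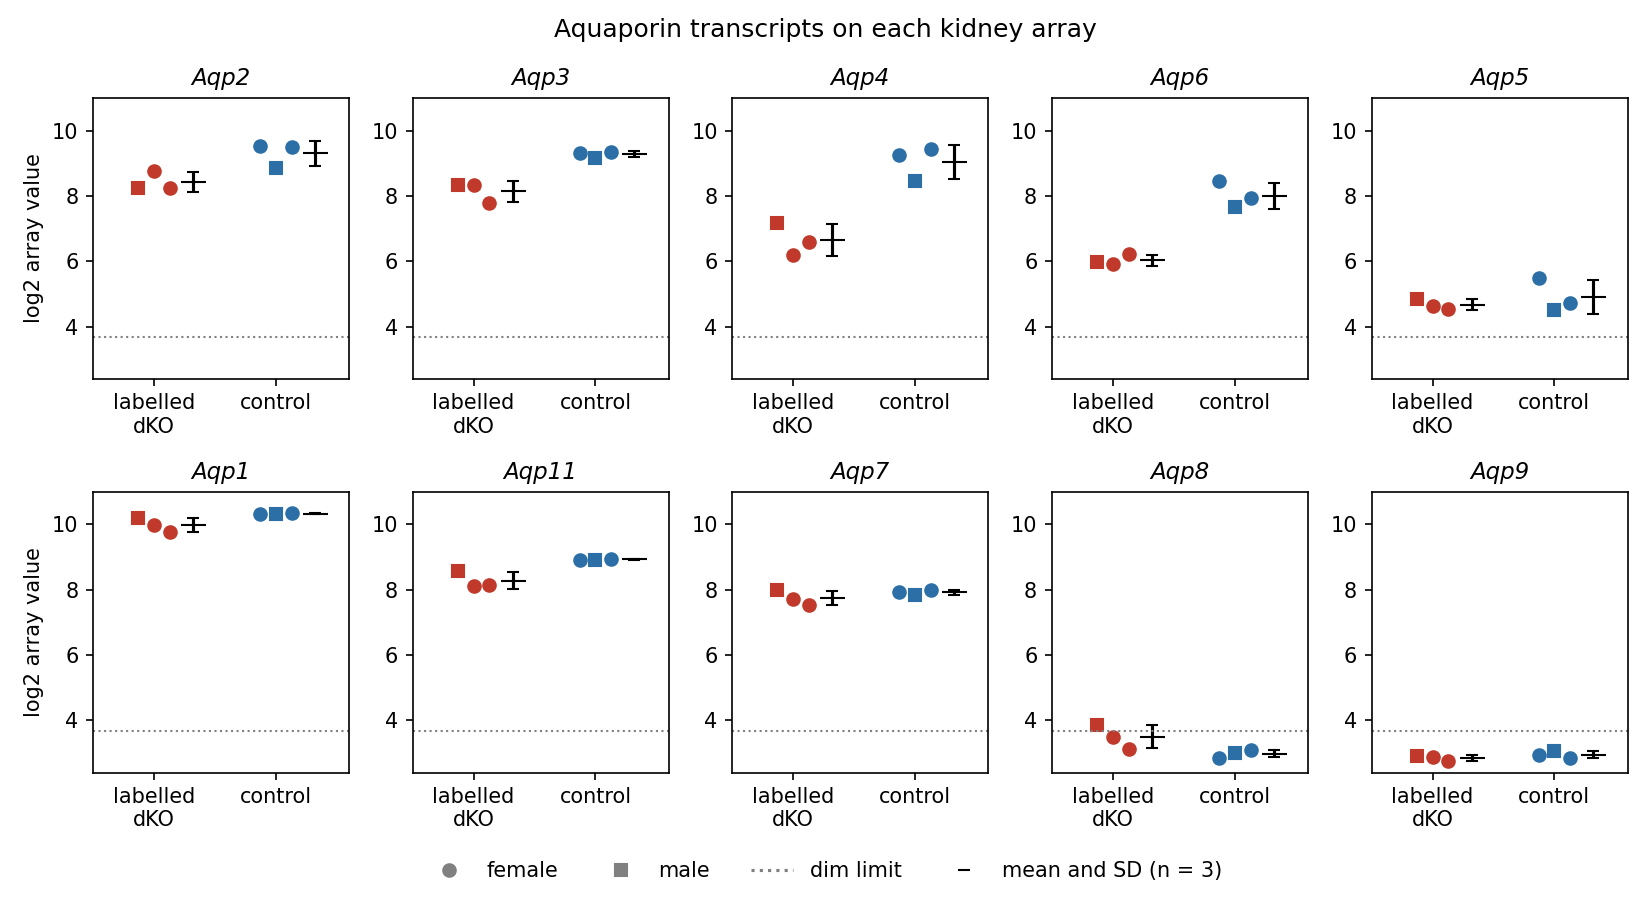
Deposited log2 value (y axis) of each aquaporin on each array, with the 3 arrays labelled dKO in red left of the 3 controls in blue, circles for females, squares for males and a bar for the mean and SD. Aqp2, Aqp3, Aqp4, Aqp6, Aqp1 and Aqp11 show dKO-labelled arrays that lie below all controls, and Aqp8 and Aqp9 lie around or under the dotted dim limit of 3.67.

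Among the principal cell channels, Aqp2 is the vasopressin-regulated channel of the apical membrane, whose loss causes nephrogenic diabetes insipidus. It read 8.24, 8.77 and 8.25 log2 on dKO 1, 3 and 5, against 9.55, 8.85 and 9.51 log2 on controls 2, 4 and 6. The groups did not overlap, but dKO 3 lay within 0.1 of the male control 4, the lowest control. Aqp2 was 1.84-fold lower, a log2 difference of -0.88 ± 0.16 (SE, n = 3 per group; 95% interval -1.25 to -0.51; limma adjusted p = 0.024). Without control 2 or control 6 the difference was -0.83 or -0.85 log2. In those 2 of 6 fits with a single array left out the call of Aqp2 was lost (highest limma adjusted p = 0.099). It was also lost with genotype alone in the model (adjusted p = 0.103) and when every row of the table was tested (adjusted p = 0.095).

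Aqp3, the glycerol-passing exit channel of the basolateral membrane, read 8.33, 8.34 and 7.78 log2 on the arrays labelled dKO, against 9.32, 9.17 and 9.35 log2 on the controls. All 3 dKO-labelled arrays lay clearly under the closely grouped controls (SD 0.32 against 0.10), with dKO 5 the lowest. The fall was 2.19-fold, -1.13 ± 0.17 log2 (SE, n = 3 per group; interval -1.52 to -0.74; limma adjusted p = 0.015). Dropping control 2 or control 6 ended this call (highest limma adjusted p = 0.072), with differences of -1.10 and -1.08 log2. Testing every row ended it too (adjusted p = 0.069). Aqp3 is also made by urothelium of the renal pelvis. Of 9 urothelial marker genes 8 were measured and 0 passed, with a median of 0.01, and their summed level was 9.47 to 10.09 log2 on the arrays labelled dKO and 9.32 to 10.22 log2 on the controls; Krt14 of that list lay below the dim limit.

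Aqp4, the second basolateral water channel, found in mice in the straight proximal tubule as well, fell most in the family. It read 7.18, 6.19 and 6.59 log2 on the arrays labelled dKO, against 9.26, 8.46 and 9.43 log2 on the controls. The male dKO 1 was the highest of its group and the male control 4 the lowest of the controls, and the groups did not overlap. The sex-adjusted difference was -2.40 ± 0.33 log2 (SE, n = 3 per group; interval -3.18 to -1.61), or 5.26-fold lower, with a limma adjusted p of 0.012. By this difference Aqp4 ranked 8 from the lowest of all 22180 genes. The fits without control 2, control 6 or dKO 5 gave differences from -2.35 to -2.19 log2. Their limma adjusted p-values were up to 0.062, and testing every row gave 0.062.

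**Figure D2:**
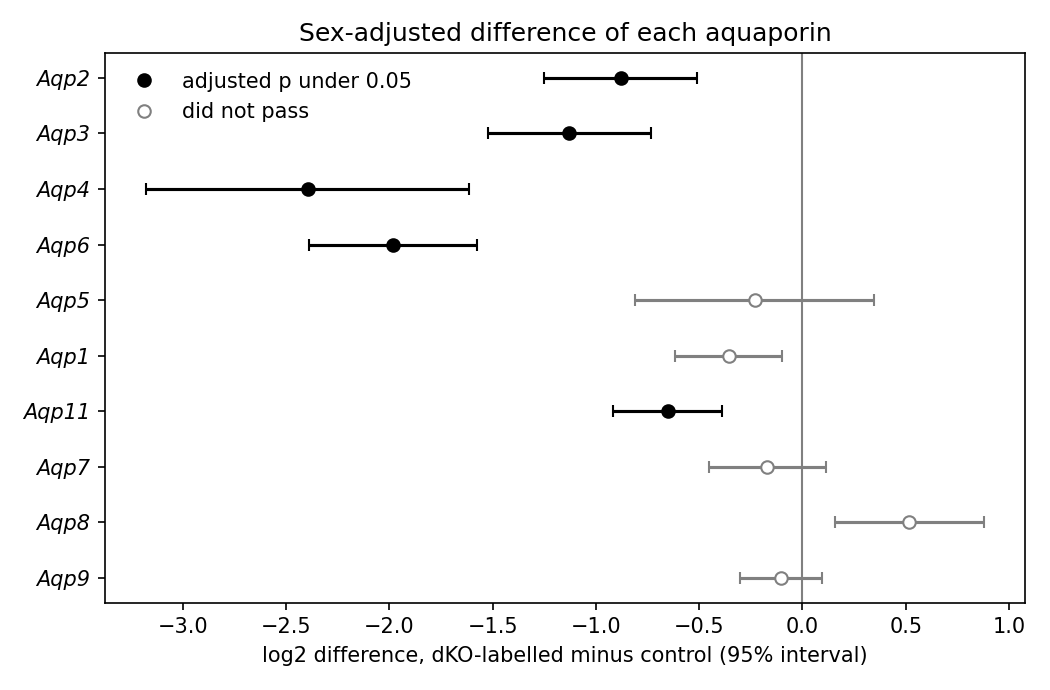
Log2 difference of each aquaporin, dKO-labelled minus control and adjusted for sex (x axis), with its 95% interval; filled points passed an adjusted p of 0.05 and open points did not. The intervals of Aqp4 (-3.18 to -1.61) and Aqp6 (-2.39 to -1.57) lie below those of Aqp2, Aqp1 and Aqp11; for Aqp8 and Aqp9 both group means lie under the dim limit, so that no fold is given for them.

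The upstream sequence of Aqp2 carries letters of the sites through which cyclic AMP and GATA factors are known to act, and is shown with that of Aqp3, which fell with it, and of Aqp5, its chromosome neighbour, which did not pass. RefSeq (GRCm38.p6) gives the 250 bases before the start of Aqp2 as chr15:99578806-99579055 on the + strand, of Aqp3 as chr4:41098184-41098433 on the - strand and of Aqp5 as chr15:99590778-99591027 on the + strand. Capitals mark matches on either strand to 5 motifs searched: TGACG (the half-site of the cyclic AMP response element), TGACGTCA (the full element), TGGAAA (the core of the tonicity element), AGATAA (the site of the factors named GATA) and CGCNTGA (a core of the paired domain consensus).
Aqp2: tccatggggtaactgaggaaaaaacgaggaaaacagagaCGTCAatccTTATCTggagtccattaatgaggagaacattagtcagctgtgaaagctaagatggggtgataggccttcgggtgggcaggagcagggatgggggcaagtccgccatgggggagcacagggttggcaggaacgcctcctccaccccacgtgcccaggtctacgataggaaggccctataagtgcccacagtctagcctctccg
Aqp3: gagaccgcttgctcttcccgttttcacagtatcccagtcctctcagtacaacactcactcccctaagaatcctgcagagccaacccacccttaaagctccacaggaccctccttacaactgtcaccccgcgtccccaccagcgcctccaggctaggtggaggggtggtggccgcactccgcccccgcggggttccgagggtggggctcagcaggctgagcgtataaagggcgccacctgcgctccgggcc
Aqp5: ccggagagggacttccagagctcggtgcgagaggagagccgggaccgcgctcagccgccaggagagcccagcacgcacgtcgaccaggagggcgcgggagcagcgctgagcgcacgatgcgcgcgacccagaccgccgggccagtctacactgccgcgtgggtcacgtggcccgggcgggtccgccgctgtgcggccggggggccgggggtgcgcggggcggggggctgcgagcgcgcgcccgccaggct

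Aqp2 held the cyclic AMP half-site at bases -211 to -207 and the GATA letters at bases -202 to -197, counted back from the start, both on the opposite strand. No match to any of the 5 motifs stood in the windows of Aqp3 and Aqp5. Aqp4, which fell most in the family, had no start in the RefSeq table used and was not searched. Over 9 aquaporin genes with a start in the table, the half-site was found in 1, the GATA letters in 2 (Aqp2 and Aqp7), the tonicity core in 2 (Aqp7 and Aqp9), and the full element and the paired domain core in 0. Of 32851 windows of this length, 17.8% held the half-site, 9.99% the GATA letters, 18.6% the tonicity core, 1.55% the full element, which contains the half-site, and 4.54% the paired domain core. These are matches of letters only and say nothing of binding.

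Of the intercalated cell channels, Aqp6 fell and Aqp5 did not pass. Aqp6 is an intracellular channel that sits with the proton pump in vesicles and conducts anions in rat. It read 5.96, 5.91 and 6.22 log2 on the arrays labelled dKO, against 8.45, 7.66 and 7.93 log2 on the controls. The dKO-labelled arrays lay close together (SD 0.16, against 0.40 in the controls) and far below every control. The difference was -1.98 ± 0.17 log2 (SE, n = 3 per group; interval -2.39 to -1.57), 3.95-fold lower, with a limma adjusted p of 0.0037, and Aqp6 ranked 16 from the lowest of all genes. It was the one aquaporin that passed in all 15 alternative fits fixed for these values (adjusted p 0.00083 to 0.029).

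Aqp5, the secretory channel of salivary glands and airways that has been reported in beta intercalated cells, read 4.85, 4.64 and 4.53 log2 on the arrays labelled dKO, against 5.48, 4.50 and 4.73 log2 on the controls. The groups overlapped, and control 2 alone stood apart. Its difference was -0.23 ± 0.24 log2 (SE, n = 3 per group; interval -0.81 to 0.35; limma adjusted p = 0.65), and without control 2 it was 0.07.

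In the proximal tubule, Aqp1 is the constitutive channel of both membranes and carries most of the water reabsorbed there. It read 10.20, 9.98 and 9.75 log2 on the arrays labelled dKO, against 10.32, 10.32 and 10.36 log2 on the controls. Every dKO-labelled array lay below the controls, which lay close together (SD 0.22 against 0.02), but the dKO-labelled arrays were spread widely relative to the difference. That difference, -0.36 ± 0.11 log2 (SE, n = 3 per group; interval -0.62 to -0.10), did not pass (limma adjusted p = 0.11); it passed under 1 of 15 alternatives, a trended robust prior (adjusted p = 0.045). Aqp1 is also made by endothelium and red blood cells. Of 8 endothelial genes 0 passed (median -0.07), with a summed level of 11.76 to 11.85 log2 on the arrays labelled dKO and 11.69 to 12.06 log2 on the controls. Of 9 red blood cell genes 2 were measured. Epb42 lay below the dim limit and did not pass (-0.09), and Slc4a1 is also an intercalated cell gene. Their summed level was 4.78 to 5.13 log2 on the arrays labelled dKO and 6.83 to 7.56 log2 on the controls. The difference in this sum is that of Slc4a1 (means 4.43 and 7.01 log2) and is no measure of red blood cells. The part of red blood cells in the difference of Aqp1 was not tested.

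Aqp11 lies in the endoplasmic reticulum of proximal tubule cells, and mice without it develop cystic kidneys. It read 8.57, 8.10 and 8.15 log2 on the arrays labelled dKO, against 8.91, 8.92 and 8.95 log2 on the controls. The groups did not overlap, with the male dKO 1 nearest to the controls. Aqp11 was 1.57-fold lower, -0.65 ± 0.11 log2 (SE, n = 3 per group; interval -0.92 to -0.39; limma adjusted p = 0.022). It was called in 2 of 6 fits with an array left out, those without a male, which gave the same values. Without control 2, control 6, dKO 3 or dKO 5 the difference was -0.62 to -0.59 log2 and the limma adjusted p was up to 0.090. With genotype alone it was 0.058, and with every row tested 0.088.

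Aqp7, the glycerol-passing channel of the brush border of the straight segment, read 7.98, 7.73 and 7.55 log2 on the arrays labelled dKO, against 7.94, 7.84 and 7.99 log2 on the controls. The male dKO 1 lay among the controls and both female dKO-labelled arrays below them. The difference was -0.17 ± 0.12 log2 (SE, n = 3 per group; interval -0.45 to 0.11; limma adjusted p = 0.48). Aqp7 is also an adipocyte gene. Of 9 adipose genes 8 were measured and 0 passed (median -0.17), with a summed level of 9.36 to 10.03 log2 on the arrays labelled dKO and 8.95 to 10.59 log2 on the controls; Lep lay below the dim limit. Ucp1 of brown fat, which did not pass, read 5.12, 4.74 and 3.87 log2 on the arrays labelled dKO, against 7.77, 3.53 and 7.53 log2 on controls 2, 4 and 6. Plin1 and Cidea were also highest on controls 2 and 6, but not every adipose gene was. Plin4 was highest on dKO 3 (5.21 log2, against 4.33 and 4.03 log2 on controls 2 and 6). Fabp4 read 9.64 log2 on dKO 3, between 9.54 log2 on control 6 and 9.99 log2 on control 2.

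Controls 2 and 6, the arrays high in Ucp1, were also left out together, an alternative chosen after seeing the data. That fit rests on the male control 4 alone, assumed to vary like the dKO-labelled arrays, and holds no term for sex. The log2 differences were -1.80 for Aqp4, -1.63 for Aqp6, -1.02 for Aqp3, -0.64 for Aqp11 and -0.43 for Aqp2, so that the difference of Aqp2 shrank by more than 1.5 times. In limma 0 of the 10 aquaporins and 0 of all genes passed, with 4 and 2871 at an unadjusted p under 0.05.

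Aqp8 and Aqp9 were at the level of genes that kidney is not expected to express. Aqp8, a channel of intracellular membranes, read 3.85, 3.50 and 3.14 log2 on the arrays labelled dKO, against 2.86, 3.00 and 3.08 log2 on the controls. The groups did not overlap, and dKO 1 alone lay above the dim limit; both means (3.49 and 2.98 log2) lay under it, and the difference of 0.52 ± 0.15 (SE, n = 3 per group) did not pass (limma adjusted p = 0.097). Aqp9, the glycerol channel of hepatocytes and of leukocytes, read 2.90, 2.89 and 2.75 log2 on the arrays labelled dKO, against 2.94, 3.06 and 2.86 log2 on the controls, with overlapping groups (limma adjusted p = 0.54). Of 8 neutrophil marker genes 7 also lay below the dim limit and 0 passed. The other family members on the array did not pass: Mip, the lens fibre channel, averaged 4.55 ± 0.05 log2 on the arrays labelled dKO and 4.59 ± 0.07 log2 on the controls, and Aqp12 of the pancreas 3.38 ± 0.26 log2 on the arrays labelled dKO and 3.44 ± 0.24 log2 on the controls (SD, n = 3 per group).

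The 5 genes that fell were set beside the marker genes of their own segment. Of 11 principal cell genes other than aquaporins, 5 fell and 1 rose (Kcne1, a potassium channel subunit, 0.51 ± 0.11, lost in 4 of 6 fits with an array left out), with a median of -0.15. Fxyd4, a regulator of the sodium pump, Hsd11b2, which protects the mineralocorticoid receptor from cortisol-like steroids, the peptide gene Apela and the vasopressin V2 receptor Avpr2 had the smallest p among those that fell, with differences of -2.19 ± 0.08, -2.04 ± 0.12, -1.46 ± 0.10 and -1.10 ± 0.12 log2 (SE). The sodium channel subunits Scnn1b and Scnn1g, at 0.16 and 0.04, and the lineage factor Gata3, at 0.28, did not pass. Differences within the principal cell list ran from -2.19 to 0.51.

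The median level of the principal cell list was 6.98 to 7.35 log2 on the arrays labelled dKO and 7.55 to 7.75 log2 on the controls. The gene at this median can differ between arrays, so the level need not follow the list's median difference of -0.15. Against the median level on the same array, Aqp4 differed between the groups by -1.94 log2, Aqp3 by -0.67 and Aqp2 by -0.43. Aqp4 was not set against the straight proximal tubule genes. The groups did not overlap for Aqp4 and Aqp3 and overlapped for Aqp2, whose difference from the mean of the list was -0.25. For Aqp4 and Aqp3 a two-sided exact permutation test gave p = 0.1, which is the lowest value possible with 3 arrays per group, and 0.2 when adjusted over the 10 aquaporins compared with their lists; for Aqp2 the exact p was 0.2 and the adjusted value 0.33. None of these 10 comparisons can reach 0.05 in this design.

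For Aqp6 the list was 5 alpha intercalated cell genes, of which 1 fell and 2 rose (median -0.06). The fall was in the basolateral anion exchanger Slc4a1 (-2.58 ± 0.21, SE), and the rises were in the receptor Kit (0.55 ± 0.08) and the transcription factor Dmrt2 (0.76 ± 0.11). A further list of 9 genes was drawn up for both intercalated types, but their presence in each type was not tested. Of these 3 fell, the ammonia transporters Rhbg (-1.87 ± 0.18) and Rhcg (-1.73 ± 0.14) and the oxoglutarate receptor Oxgr1 (-0.56 ± 0.11), with a median of -0.26. The lineage factor Foxi1 (0.13) and all 4 proton pump subunits of the list, Atp6v1g3 (0.04), Atp6v0d2 (-0.04), Atp6v1b1 (-0.25) and Atp6v0a4 (-0.26), did not pass. Of 3 beta intercalated genes 0 passed (median -0.30). Against the median level of the alpha list on the same array, Aqp6 differed by -1.24 log2 without overlap (exact p = 0.1, adjusted 0.2). That level was set by Dmrt2 on the arrays labelled dKO (5.98 to 6.40 log2) and by Slc4a1 or Kit on the controls (6.67 to 7.15 log2). It therefore differs from the list's median difference of -0.06. The calls of Oxgr1, Kit and Dmrt2 were lost in 4, 3 and 1 of 6 fits with an array left out.

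For the proximal members, of 9 convoluted tubule genes 5 fell and 0 rose, with a median of -0.52. The phosphate carrier Slc34a3 (-3.23 ± 0.31, SE), the glucose carrier Slc5a2 (-2.95 ± 0.26), the lactate carrier Slc5a12 (-1.65 ± 0.24) and the amino acid carrier Slc6a19 (-1.85 ± 0.24) led them; Slc5a12 and Slc6a19 were lost in 3 and 2 of 6 fits with an array left out. The list's median level was 9.68 to 10.38 log2 on the arrays labelled dKO (Hnf4a) and 10.58 to 10.76 log2 on the controls (Cubn or Slc5a2). This level is not the median difference of -0.52, below which Aqp11 (-0.65) lay and above which Aqp1 (-0.36) lay. Against the median level Aqp1 differed by 0.37 log2 upward with no overlap (exact p = 0.1, adjusted 0.2) and Aqp11 by 0.08 with overlap (exact p = 0.5, adjusted 0.56). Against the mean of the list these differences were 0.96 for Aqp1 and 0.67 for Aqp11 (exact p = 0.1 each), so their size depends on the summary used. Of 9 straight tubule genes 8 were measured and 3 fell, the organic anion carrier family gene Slc22a13 (-0.53 ± 0.09), the monocarboxylate carrier Slc5a8 (-0.51 ± 0.11) and the protease subunit Mep1b (-1.91 ± 0.42), with a median of -0.45; all 3 overlapped between groups and were lost in 5, 6 and 4 of 6 fits with an array left out. Slc7a13 and Cyp7b1 of this list read 10.73 and 10.36 log2 on the male dKO 1 and 10.93 and 10.30 log2 on the male control 4, but at most 5.53 log2 on any female array, so the median that Aqp7 was set against moves with sex. Aqp7 differed from it by 0.89 with overlapping groups (exact p = 0.3, adjusted 0.43). For the rest of the 10, Aqp5 differed by -0.30 from the beta intercalated list (exact p = 0.4, adjusted 0.50), with overlap, and by -0.015 from the mean of that list. The comparison of Aqp9 with the neutrophil list is one of 2 background levels and is not read, since Aqp9 and 7 of the 8 neutrophil genes lie below the dim limit. Aqp8, under the dim limit, differed by 1.25 from the convoluted list without overlap (exact p = 0.1, adjusted 0.2). The level of that list was itself lower on the arrays labelled dKO, so this value is not read either.

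**Figure D3:**
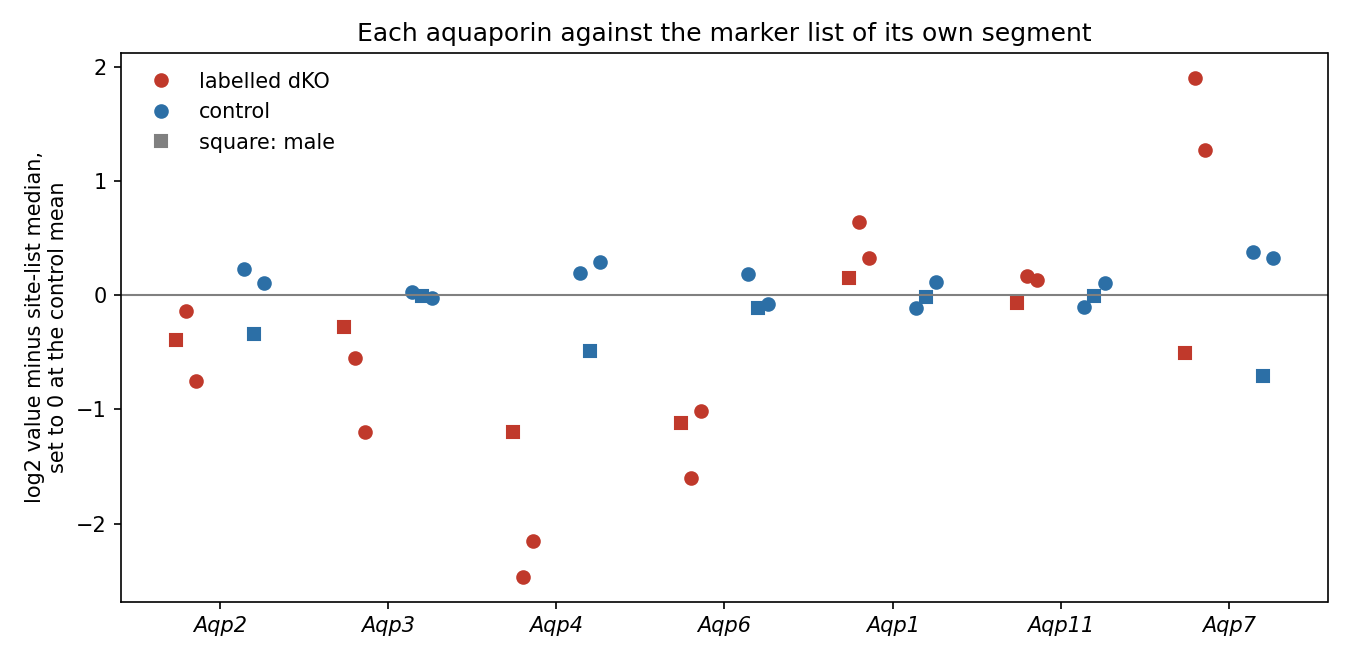
Log2 value of 7 aquaporins minus the median log2 level of their segment's marker list on the same array (y axis, with the control mean of each gene set to 0), with arrays labelled dKO in red left of controls in blue and squares for males. The marker gene at the median can differ between arrays. Aqp4, Aqp6 and Aqp3 lie under their controls, with mean differences of -1.94, -1.24 and -0.67, Aqp1 lies above them at 0.37, and Aqp2, Aqp11 and Aqp7 overlap.

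Aqp1 also belongs to the thin descending limb, and genes listed as thin limb markers were set beside it. Which segment their RNA came from, that of Slc14a2 included, was not tested in this bulk tissue. Of 7 thin limb genes 6 were measured and 4 fell (median -1.21), the urea transporter Slc14a2 (-3.64 ± 0.19, SE), the protease Corin (-1.14 ± 0.08), Sptssb (-1.63 ± 0.29) and the chaperone Cryab (-1.28 ± 0.11); Sptssb was lost in 3 of 6 fits with an array left out. Of 10 thick ascending limb genes, which share the medulla with them, 2 fell, the chloride channel subunit Bsnd (-0.79 ± 0.10) and the claudin Cldn10 (-0.48 ± 0.10), while Casr, which senses calcium, was the 1 that rose (0.35 ± 0.08), with a median of -0.11; their calls were lost in 2, 4 and 6 of those fits. In the distal convoluted and connecting tubule 1 of 8 genes fell, the calcium-binding S100g (-1.58 ± 0.13), and 1 rose, Pvalb (0.52 ± 0.10, lost in 5 of those fits), with a median of 0.02.

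The genes that act on Aqp2 between hormone and membrane mostly did not pass, which holds for all genes too, of which 7.2% passed. Simulated log2 changes of 0.5 were recovered in 14.7%, so not passing does not show that a gene was unchanged. Of 17 genes of the vasopressin and cyclic AMP cascade 16 were measured, 2 fell and 0 rose (median 0.10). These were the receptor Avpr2, at 5.57, 5.37 and 5.68 log2 on the arrays labelled dKO against 6.72, 6.45 and 6.76 log2 on the controls, and the protein kinase A subunit Prkar2b (-1.13 ± 0.24, SE), which was lost in 4 of 6 fits with an array left out. The adenylyl cyclase Adcy6 (0.00), the kinase subunits Prkaca (0.10) and Prkacb (-0.06) and the cyclic AMP response factor Creb1 (0.10) did not pass, and the list ran from -1.13 to 0.43. Of 17 genes for the shuttling of Aqp2 vesicles 16 were measured and 1 fell, the motor Myo5b (-0.45 ± 0.08), lost in all 6 such fits (adjusted p up to 0.10); the fusion proteins Vamp2 (-0.01) and Snap23 (-0.06) and the recycling protein Rab11a (0.05) did not pass, and the list ran from -0.45 to 0.34.

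Of 16 transcription regulators tied to Aqp2, 15 were measured, 1 fell and 3 rose (median 0.18). The fall was in Elf5, an Ets factor of principal cells, at 4.79, 5.34 and 5.19 log2 on the arrays labelled dKO against 6.32, 5.57 and 6.60 log2 on the controls (-1.05 ± 0.13, SE; limma adjusted p = 0.0089). The rises were in the AP-1 subunits Jun (1.51 ± 0.22) and Fos (at least 1.05, counted from the dim limit, under which its control mean lay) and in the homeobox gene Hoxb7 (0.45 ± 0.09); Jun was lost in 2 and Hoxb7 in all 6 fits with an array left out. Of 7 genes of the tonicity response 5 were measured, of which the betaine carrier Slc6a12 fell (-1.45 ± 0.28) and the taurine carrier Slc6a6 (0.50 ± 0.10) and the amino acid carrier Slc38a2 (0.89 ± 0.15) rose, each lost in at least 4 of those 6 fits. The tonicity factor Nfat5 itself stood at 0.12 and did not pass. For the aquaglyceroporins, 7 of 8 glycerol handling genes were measured and 3 fell (median -0.44): the mitochondrial glycerol phosphate dehydrogenase Gpd2 (-0.69 ± 0.09), the lipase Mgll (-0.80 ± 0.10) and the glycerol kinase relative Gk5 (-0.44 ± 0.10). Gk5 overlapped between the groups and was lost in all 6 fits, and Gpd2 and Mgll in 1 each.

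**Figure D4:**
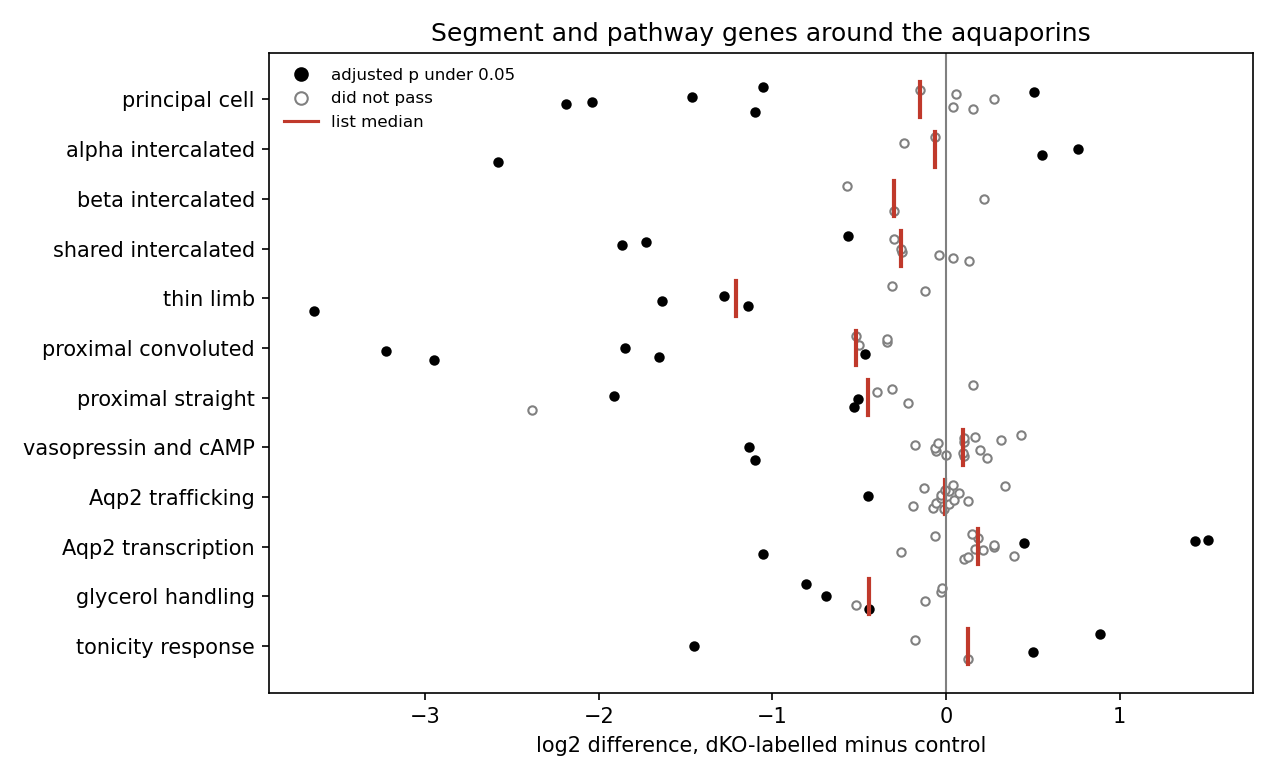
Log2 difference, dKO-labelled minus control (x axis), of each measured gene in the segment and pathway lists (rows), with filled points for an adjusted p under 0.05, open points for genes that did not pass and a red bar at the list median. The thin limb median stands at -1.21 and those of both proximal lists at -0.52 and -0.45, while the vasopressin, trafficking and transcription lists centre between -0.01 and 0.18.

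Sex was a second labelled difference. Of the 10 aquaporins 0 differed between females and males (limma, adjusted p under 0.05), where 1.87% of all genes did; at an unadjusted p under 0.05 there was 1, Aqp2, where 16.1% of all genes passed that cut. Aqp2 averaged 9.02 log2 on the 4 female arrays and 8.55 log2 on the 2 male arrays, so that females were 0.47 ± 0.17 higher (SE), which missed the threshold (limma adjusted p = 0.23). The dependence of the genotype difference on sex passed for 0 of 10 aquaporins and for 0.00451% of all genes, with 2 aquaporins, Aqp4 and Aqp11, at an unadjusted p under 0.05, where 6.99% of all genes passed that cut. Aqp4 averaged 6.39 log2 in dKO-labelled females and 9.34 log2 in control females, a difference of -2.95, and read 7.18 log2 in the dKO-labelled male and 8.46 log2 in the control male, a difference of -1.28. The interaction was -1.67 ± 0.28 log2 (SE), with an adjusted p of 0.38. Aqp11 differed by -0.80 in females (8.13 against 8.93 log2) and by -0.35 in the males (8.57 against 8.92 log2), with an interaction of -0.45 ± 0.17 (adjusted p = 0.68). With 1 male per group these values have no replicate among males.

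Some genes followed an aquaporin closely over the 6 arrays. Likeness was measured as the root mean square difference between log2 deviations from each gene's own mean, among 13663 genes above the dim limit outside the family. Nearest to Aqp6 were Rhbg (0.118), the tight junction gene Cldn11 (0.185) and Rhcg (0.188). Rhbg read 5.46, 5.34 and 5.94 log2 on the arrays labelled dKO, against 7.77, 7.16 and 7.41 log2 on the controls, so that it shares with Aqp6 the highest value of the dKO-labelled arrays on dKO 5 and the lowest of the controls on control 4. Nearest to Aqp2 were the glycerolipid enzyme Gpat3 (0.127), the organic anion carrier Slco4a1 (0.127) and the guanine deaminase Gda (0.129). Gpat3 read 6.29, 6.71 and 6.56 log2 on the arrays labelled dKO, against 7.66, 7.01 and 7.78 log2 on the controls, with dKO 3 the highest of its group and control 4 the lowest control, as for Aqp2. Nearest to Aqp4 were Prss35 (0.287), whose mean on the arrays labelled dKO lay under the dim limit, Cldn11 (0.357) and Slc5a2 (0.358). The deviations were not scaled, so distances tend to be larger for a gene with a larger difference, such as Aqp4. They therefore do not show whether Aqp4 has fewer close followers than Aqp2 or Aqp6. Within the family, Aqp3 was nearest to Aqp2 (0.277) and Aqp6 to Aqp4 (0.428). All these distances come from the same 6 arrays and include the difference between the groups.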

How the data were processed

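RNA of 6 adult mouse kidney samples (400 ng each) was hybridised to Affymetrix Mouse Gene 2.1 ST arrays, per the labels. The authors deposited log2 values per transcript cluster; the submitters' processing notes name RMA, limma and R 3.4.0 but give them no role. Filters and the genome build were not given in the sources used here, and clusters are therefore printed without coordinates. Array medians were 3.81 to 3.87 log2, and no pair of arrays shared more than 29 identical values. Of 41345 clusters, 23521 had 1 gene symbol, 1814 several and 16010 none in the platform annotation; 23328 matched RefSeq GRCm38.p6 by gene identifier. The cluster with the highest mean was taken for 1082 genes with several, leaving 22180 genes.

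Genotype and sex were fitted with limma 3.58.1 in R 4.3.3 (3 residual and 6.72 total degrees of freedom), with Benjamini-Hochberg adjustment over all genes and a threshold of 0.05. Sex came from the same fit, and its interaction with genotype from a fit with 2 residual degrees of freedom. Fits without a male array leave the other male to the sex term, and so equal the fit of females only. They are still counted separately in every count of 6 fits or 15 alternatives. Differences from the median level of a segment list on each array were compared with exact permutation tests in Python 3.11.15. The members and lists were chosen with earlier results of these data known. Named are all members, up to 4 called genes of each list, by smallest p, and the 3 nearest genes of Aqp2, Aqp4 and Aqp6; other genes were named after their values were seen. The 20 lists held 175 genes, of which 158 were measured; the rest were not analysed here. Nothing in the labels gives a batch or hybridisation day, so none was tested. On simulated data (22180 genes, 200 changed, 20 runs of the dKO-labelled against control comparison) a log2 change of 1 was recovered in 85.9% and of 0.5 in 14.7% of changed genes, with 4.70% false calls. The 6 arrays limit the precision.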

Additional observations from a re-analysis of the deposited data

How the results depend on the processing

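No paired analysis was possible because the labels pair no dKO-labelled array with a control. The replicate numbers run on through both groups and say nothing of pairs. The count of aquaporins past the threshold was 5, all lower, with females only, array weights, quantile normalization, median centring, dim genes removed and clusters averaged, and 6 with a trended robust prior. It was 3 with genotype alone, 1 when every row of the table was tested, between 1 and 5 with an array left out (1 without control 2 or control 6, 3 without dKO 5, 4 without dKO 3), and 0 without both controls 2 and 6. The count over all genes was 1596; it was 471 with genotype alone, 302 with every row, 344 to 1249 with an array left out and 0 without both controls 2 and 6. After median centring 713 genes rose and 1194 fell, against 913 and 683 as deposited, and the same 5 aquaporins fell. The difference of Aqp5 ranged from -0.52 to 0.065 with an array left out, being above 0 without control 2, and was 0.17 without both controls. Of the differences between females and males, none of which passed, Aqp4 ranged from -0.10 to 0.26 with an array left out (below 0 without control 2 or control 6) and was -0.0024 after median centring, Aqp5 ranged from -0.057 to 0.26 (below 0 without control 2) and Aqp3 from -0.14 to 0.10 (above 0 without dKO 5). The cause of these changes was not tested. With the mean of a segment list in place of its median, all 10 relative differences kept their direction, but several sizes moved by more than 1.5 times: the difference between the groups became 0.96 for Aqp1, 0.67 for Aqp11 (exact p = 0.1), -0.25 for Aqp2, -0.015 for Aqp5 and 0.59 for Aqp7. Counts over the 20 lists stayed within 1.5 times in 228 refits and moved further in 72.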

Other observations

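Of the aquaporin genes, 5 lie in 2 tandem groups. By gene order in RefSeq GRCm38.p6, Aqp2, Aqp5 and Aqp6 follow each other on chromosome 15, with differences of -0.88, -0.23 and -1.98 log2, between Faim2 (-0.26 ± 0.14, SE, did not pass) and Racgap1 of the cytokinetic spindle, which rose (1.02 ± 0.13; limma adjusted p = 0.010). Racgap1 read 4.31, 5.09 and 5.26 log2 on the arrays labelled dKO, against 3.96, 3.66 and 3.98 log2 on the controls. Aqp7 and Aqp3 are neighbours on chromosome 4, with -0.17 and -1.13 log2, between Nfx1 (0.09) and Nol6 (0.02), neither of which passed. Of the neighbours of Aqp4 on chromosome 18, Kctd1 did not pass (0.28 ± 0.09; adjusted p = 0.12) and the sulfotransferase gene Chst9 rose (0.80 ± 0.14; adjusted p = 0.024), at 5.26, 5.40 and 5.43 log2 on the arrays labelled dKO against 4.80, 4.03 and 4.86 log2 on the controls. The RefSeq table also lists the non-coding Gm34765 across Aqp2, Aqp5 and Aqp6 and A830021F12Rik across the end of Aqp4. Neither was analysed here, and whether their transcripts reach the clusters of those aquaporins was not tested. These genes were named for their place, after the aquaporin values were known.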
